A study of Mus musculus with 12 samples.

Results

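The response of fibroblasts to cancer-cell vesicles with and without CRIPTO knockdown in the vesicle-producing cells was read from 6 of the 12 RNA libraries of the study. The libraries came from 3T3 cells, a mouse fibroblast cell line, kept for 24 h with extracellular vesicles (EVs), the membrane-bound particles that cells release. The EV donors were MDA-MB-468 cells, a human breast cancer cell line. In 3 libraries the donors were the control line (shCon), and in the other 3 they carried a CRIPTO knockdown (shCr). The comparison was made by treatment label and not by any measured value. Both groups therefore share the recipient line, the exposure, the donor line and the fact of EV treatment, and differ in the CRIPTO state of the donor cells. The other 6 libraries, 3 from untreated 3T3 cells and 3 from cells given EVs of CRIPTO-overexpressing donors (CrOE), give reference levels and, for untreated cells, a few tests, and all 12 enter the model that estimates the spread between replicates. The dose of EVs, the number of shRNA sequences and whether each donor line was 1 clone are not given in the sources used here, and the labels do not say whether the replicates were separate cultures. The p-values thus measure the spread between these libraries, which may be technical.

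CRIPTO is a small membrane-anchored protein that works as a co-receptor for Nodal and related ligands of the TGF-beta family, and it can also bind activin and TGF-beta themselves. Ligands of this family join receptor kinases at the cell surface, and the activated receptors phosphorylate SMAD proteins that enter the nucleus and switch target genes. The TGF-beta and activin branch drives collagen, fibronectin and contractile genes in fibroblasts, together with feedback inhibitors of the pathway, whereas the BMP branch is best known for inducing the ID genes. The study's title asks about the uptake of EVs and the activation of fibroblasts, and the comparison of shCr with shCon EVs addresses which fibroblast genes differ when the EV donors carry the knockdown.

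Library totals were 27811205 to 30177808 estimated counts with shCon EVs and 28734771 to 37773847 with shCr EVs. The table held 32544 gene symbols, and 14279 of them had enough counts to be tested. Levels of a gene are given as CPM, the usual scale of counts relative to library size, with sizes adjusted by TMM, and differences as log2 fold changes of shCr over shCon EVs with their standard error (SE). A signed value in parentheses beside a gene is this log2 fold change unless another comparison is named. A gene was called at an adjusted p under 0.05 in edgeR's quasi-likelihood F-test (Benjamini-Hochberg), fitted over all 4 groups. A single library stood apart from the others. On the first principal component of the 6 libraries, which held 41.1% of the variance, shCr replicate 1 lay at 42.8, its replicates at 3.47 and -2.06, and the shCon libraries between -19.2 and -11.6. On the second (23.9%) it lay at 11.2, within the 7.44 to 14.5 of the shCon libraries, and its replicates at -20.7 and -23.2. Its log2 CPM correlated with shCr replicates 2 and 3 at 0.988 and 0.9864. Those replicates correlated with the shCon libraries at 0.9906 to 0.9914. In shCr replicate 1 mitochondrially encoded genes held 0.622% of the counts, against 1.35% to 1.70% in the other 5 libraries. Where leaving it out moved a count of calls in a gene list, both counts are given.

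The recipient cells carried the markers of fibroblasts. All 12 fibroblast markers were tested, with summed levels of 26830.1 to 27157 CPM with shCon EVs and 17878 to 19647 CPM with shCr EVs. Defining markers of other cell types were at or near 0. The 13 epithelial markers summed to 2.61 to 4.07 and 2.50 to 4.04 CPM, with Epcam at 0 counts in all 6 libraries. The 8 endothelial markers summed to 5.51 to 6.23 and 4.30 to 5.64 CPM, and the 8 skeletal muscle markers to 3.69 to 4.76 and 1.99 to 2.53 CPM with Myod1 and Myf5 at 0. The 9 leukocyte markers summed to 123 to 134 and 174 to 246 CPM, nearly all from Lyz2 and Cd14, while Ptprc had 0 to 7 counts and Adgre1 0 to 1. The 7 adipocyte markers summed to 144 to 146 and 167 to 222 CPM, nearly all from Lpl and Fabp4, with Cidec, Lep and Pck1 at 0 counts. Tdgf1, the mouse gene of CRIPTO, had 0, 0 and 2 counts with shCon EVs and 0, 1 and 0 with shCr EVs, under the floor of 3 counts set for detection. CRIPTO was altered in the human donor cells, so this says nothing of the knockdown, for which the libraries hold no check.

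The test called 1247 genes between the 2 EV groups, 8.73% of those tested. Of these, 746 were higher (5.22%) and 501 lower (3.51%) with shCr EVs. These shares are the background for the counts of calls in gene lists below. Most differences were small, with a median fold of 1.31 among the genes called higher and 0.760 among those called lower. Only 57 genes rose and 51 fell by at least 2-fold (0.756% together). The CPM of the 3 shCr libraries did not overlap those of the 3 shCon libraries in 1246 of the called genes, against 28% of all genes tested (15.5% higher and 12.5% lower). Without shCr replicate 1 there were 1398 calls, 1047 of them shared with the 1247. Leaving out shCon replicate 1, 2 or 3 left 680, 636 and 685 calls. At an unadjusted p under 0.05 there were 3206 genes.

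**Figure D1:**
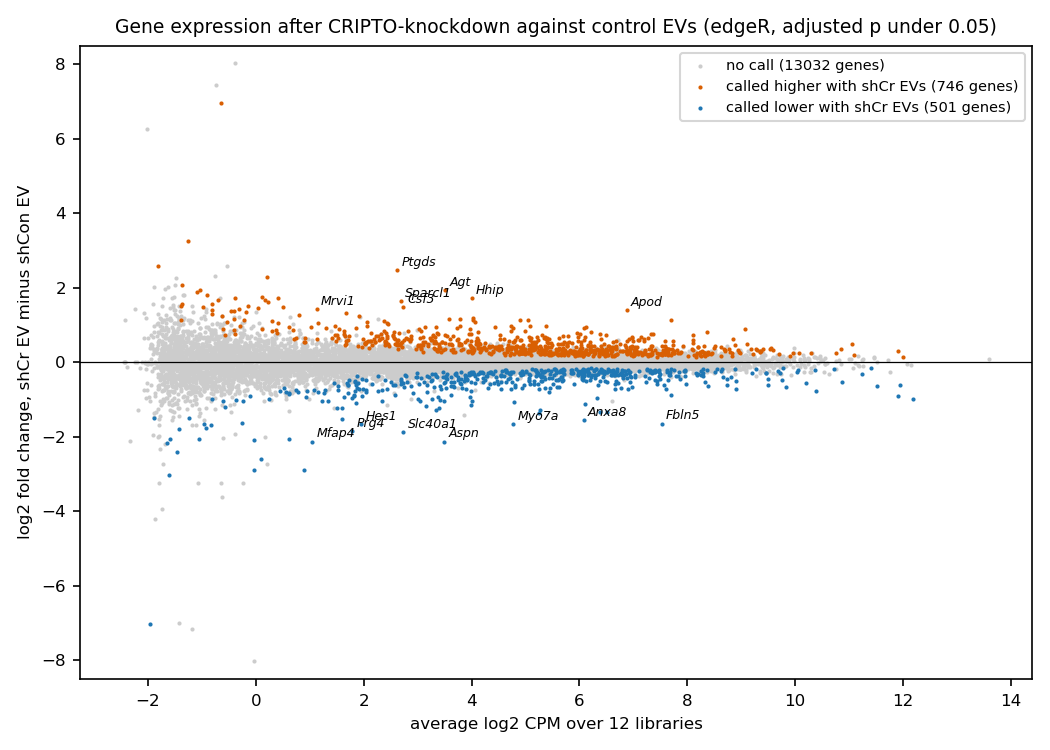
Log2 fold change of shCr over shCon EVs (vertical axis) against the average log2 CPM over 12 libraries (horizontal axis) for the 14279 genes tested, with the 746 genes called higher in orange, the 501 called lower in blue and the rest in grey. The leading genes by size among those at an average log2 CPM of 1 or more are named.

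TGF-beta target genes were mostly lower with shCr EVs. Of the 15 TGF-beta and BMP target genes tested, 10 fell and 3 rose, with a median log2 fold change of -0.35 against 0.0043 over all genes tested. The counts were the same without shCr replicate 1, and 8 fell and 2 rose in a model of only the 2 groups. The 3 that rose, Id1, Id2 and Id3, are the genes of the list known as BMP targets.

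Skil encodes SnoN, a SMAD co-repressor that TGF-beta itself induces. Its level was 42.8, 36.2 and 35.1 CPM with shCon EVs and 16.2, 14.5 and 13.8 CPM with shCr EVs. Every shCr library lay below every shCon library, and the log2 fold change was -1.36 (SE 0.10, adjusted p = 7.03e-06). Untreated cells had 21.8 ± 1.73 CPM (mean ± SD, n = 3, as in all such values below) and CrOE EV cells 77.5 ± 6.78 CPM, the latter given for reference and not tested. Skil was thus above the untreated level with shCon EVs (log2 fold change 0.80, adjusted p = 3.72e-05) and below it with shCr EVs (-0.56, adjusted p = 0.000823). Both of these comparisons share the untreated libraries, and each also shares a group with the comparison of the EVs. Over all genes tested, 38.1% were called for shCon EVs against untreated cells (18% higher and 20.2% lower) and 37.3% for shCr EVs against untreated cells (18.4% higher and 18.8% lower).

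Pmepa1, which encodes a membrane protein that holds back TGF-beta receptor signalling, behaved likewise. It measured 83.6, 83.5 and 80.2 CPM with shCon EVs and 29.2, 32.9 and 35.1 CPM with shCr EVs. The groups did not overlap, and the log2 fold change was -1.34 (SE 0.07, adjusted p = 6.29e-07). Against 36.8 ± 2.81 CPM in untreated cells it rose with shCon EVs (1.17, adjusted p = 9.71e-08), and with shCr EVs the difference was -0.18 (adjusted p = 0.0688). CrOE EV cells had 181 ± 4.19 CPM. In Skil and Pmepa1 the 3 EV groups therefore stood in the order shCr, shCon, CrOE from low to high. CrOE EV cells also differed broadly from the other groups. Their 12 fibroblast markers summed to 9374 to 9790 CPM, against 26830 to 27157 CPM with shCon EVs. Their ER folding genes summed to 41798 to 44021 CPM, against 4881 to 4996 CPM.

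Tgfbi, an adhesion protein of the matrix named for its induction by TGF-beta, did not share that order. Its level was 105, 112 and 106 CPM with shCon EVs and 52.1, 60.0 and 53.6 CPM with shCr EVs, with no overlap (-0.96, SE 0.06, adjusted p = 3.68e-06). It was 120.0 ± 3.83 CPM in untreated cells and 37.0 ± 2.28 CPM with CrOE EVs, so both altered donor lines lay on the same side of shCon. Ctgf, a matricellular growth factor modulator, fell from 15.7 ± 0.999 to 7.66 ± 0.904 CPM (-1.03, adjusted p = 0.000396), and Ltbp2, a latent TGF-beta binding family protein, to 0.542 of its shCon level (-0.88, adjusted p = 0.000132). CrOE EV cells had 28.7 ± 2.41 CPM of Ctgf, above shCon. Their Ltbp2 level was 29.3 ± 2.02 CPM, below the 252 ± 9.50 CPM of shCon. Exons of other genes on the opposite strand overlap 23.2% of the exon bases of Ctgf and 9.34% of those of Ltbp2 in the GENCODE M21 annotation, and since no source says whether counting used strand, reads of such partners cannot be told apart.

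Of other inhibitors of the pathway, 3 fell by less than Skil and Pmepa1. Smad7, the inhibitory SMAD, had a log2 fold change of -0.32 (adjusted p = 0.0203), Ski -0.35 (adjusted p = 0.00333) and Tgif1 -0.23 (adjusted p = 0.0119). CrOE EV cells had 24.2 ± 1.07 CPM of Smad7, above the 7.26 ± 0.162 CPM of shCon. The Smad7 call was lost when any shCon library was left out, and the Tgif1 call without shCon replicate 2 or 3. Of 16 ligand and ligand regulator genes tested 3 rose and 1 fell (25%, against 8.73% of all genes tested, median -0.01), with 1 rise in the model of only the 2 groups. Of 21 receptor and SMAD genes 1 rose and 3 fell (19%, median -0.04), none of the latter 4 being called in the model of only the 2 groups. Tgfb1 had a log2 fold change of -0.11 (adjusted p = 0.415), whereas Tgfb2 rose from 13.9 ± 0.276 to 24.7 ± 2.74 CPM (0.82, adjusted p = 0.000472).

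The ID genes encode proteins that block the DNA binding of helix-loop-helix factors. Id3 measured 9.55, 10.6 and 10.4 CPM with shCon EVs and 20.8, 22.8 and 23 CPM with shCr EVs. All shCr libraries were above all shCon libraries (1.12, SE 0.08, adjusted p = 5.17e-06), yet both groups were far below the 96.9 ± 7.83 CPM of untreated cells, and CrOE EV cells had 4.42 ± 0.259 CPM. Id2 rose as well (1.82, 1.49 and 1.22 to 3.35, 3.17 and 3.26 CPM in libraries 1 to 3, 1.10, adjusted p = 0.000925). The rise of Id1 was smaller (0.38, adjusted p = 0.0324) and was lost when any shCon library was left out.

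**Figure D2:**
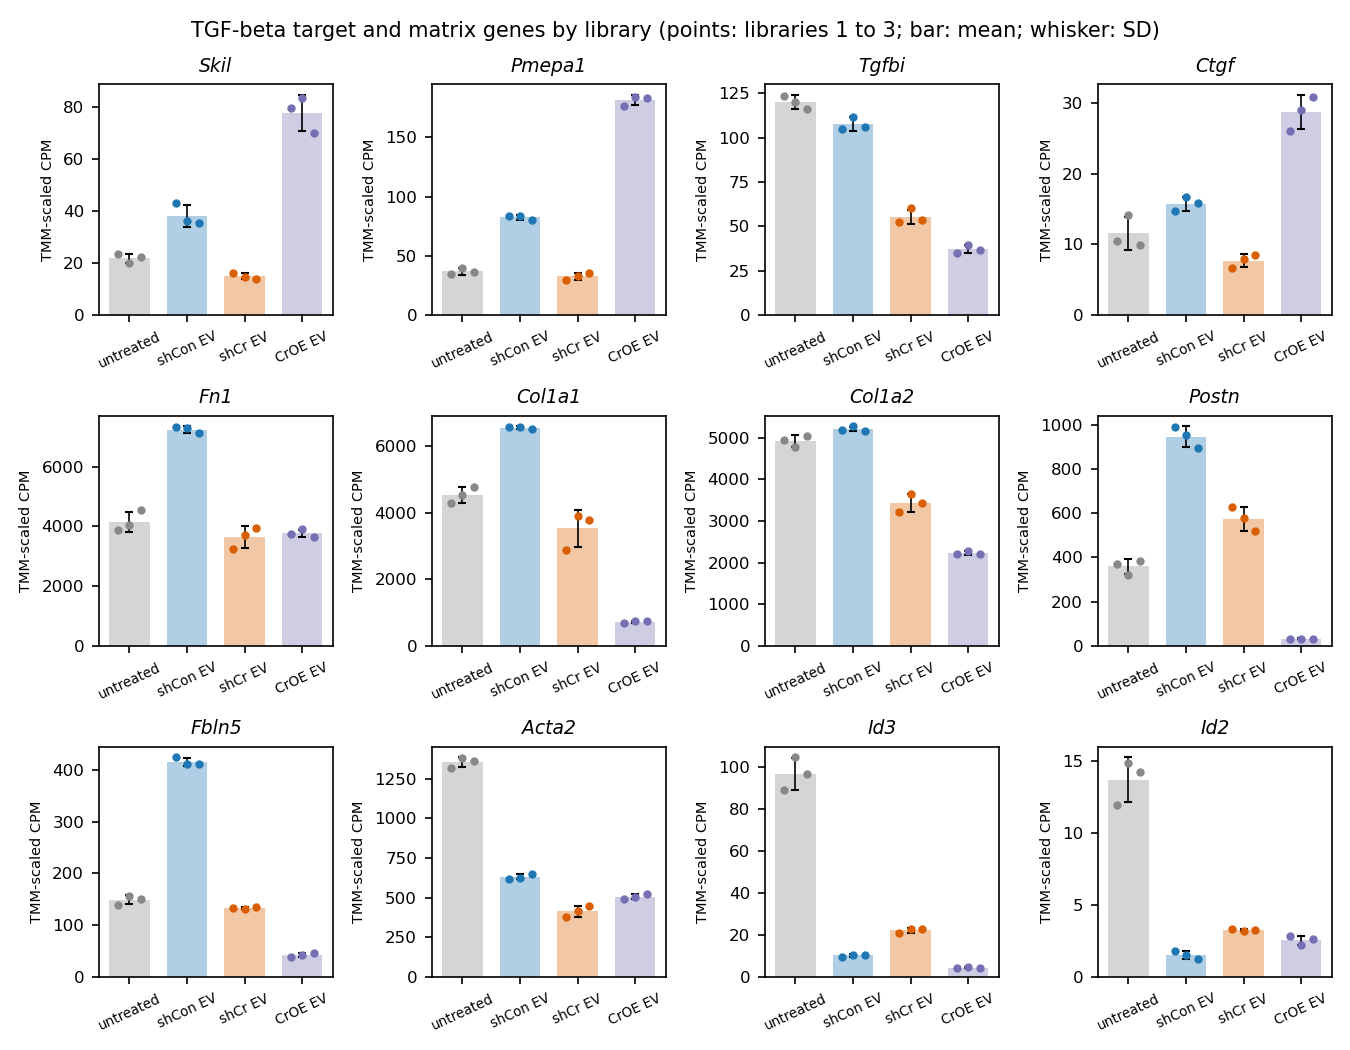
TMM-scaled CPM (vertical axes, linear from 0) of TGF-beta target, ID, matrix and contractile genes in the 4 groups (horizontal axes), with a point per library, a bar at the mean and a whisker of 1 SD. In Skil, Pmepa1, Fn1, Col1a1 and Fbln5 all shCr points lie below all shCon points, and in Id3 they lie above.

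Promoter sequences are shown for 3 genes that fell with the TGF-beta and matrix groups, for Id3 and for Ptgds, the gene with the largest rise by the naming rule (called, no overlap between libraries and an average log2 CPM of 1 or more), because the short motif CAGAC is the letter core that SMAD proteins can bind. They run from 250 bases before to 50 bases after the start site, 5′ to 3′ on the strand of the gene, and come from RefSeq with build GRCm38.p6. Capitals mark CAGAC, or GTCTG where the motif lies on the opposite strand. Tgfbi (fell) lies at chr13:56609336-56609635 on the plus strand, Col1a2 (fell) at chr6:4505368-4505667 on the plus strand, Fbln5 (fell, the first of 2 promoters in the table) at chr12:101819070-101819369 on the minus strand, Id3 (rose) at chr4:136143572-136143871 on the plus strand and Ptgds (rose) at chr2:25469700-25469999 on the minus strand.
Tgfbi: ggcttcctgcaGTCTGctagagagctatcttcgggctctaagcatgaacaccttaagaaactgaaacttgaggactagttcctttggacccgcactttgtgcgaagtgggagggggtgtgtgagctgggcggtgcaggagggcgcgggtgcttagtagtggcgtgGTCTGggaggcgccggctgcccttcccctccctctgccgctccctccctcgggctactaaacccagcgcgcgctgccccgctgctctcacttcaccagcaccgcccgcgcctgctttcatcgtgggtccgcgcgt
Col1a2: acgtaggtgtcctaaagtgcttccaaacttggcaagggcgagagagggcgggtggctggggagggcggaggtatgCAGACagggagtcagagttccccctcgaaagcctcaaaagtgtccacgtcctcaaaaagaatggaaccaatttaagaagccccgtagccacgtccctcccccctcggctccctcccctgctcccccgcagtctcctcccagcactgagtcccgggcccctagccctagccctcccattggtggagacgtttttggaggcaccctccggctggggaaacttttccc
Fbln5: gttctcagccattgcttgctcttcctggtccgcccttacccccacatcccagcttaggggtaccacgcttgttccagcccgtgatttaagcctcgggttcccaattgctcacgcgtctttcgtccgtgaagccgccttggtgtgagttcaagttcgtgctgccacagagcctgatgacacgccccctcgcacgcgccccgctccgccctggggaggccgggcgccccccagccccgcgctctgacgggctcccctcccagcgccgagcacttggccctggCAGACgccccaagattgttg
Id3: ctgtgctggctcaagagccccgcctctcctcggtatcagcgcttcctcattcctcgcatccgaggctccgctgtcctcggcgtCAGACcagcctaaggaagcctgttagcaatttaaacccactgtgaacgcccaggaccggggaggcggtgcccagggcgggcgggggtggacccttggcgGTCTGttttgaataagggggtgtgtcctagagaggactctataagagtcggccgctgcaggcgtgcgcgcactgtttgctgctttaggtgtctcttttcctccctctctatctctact
Ptgds: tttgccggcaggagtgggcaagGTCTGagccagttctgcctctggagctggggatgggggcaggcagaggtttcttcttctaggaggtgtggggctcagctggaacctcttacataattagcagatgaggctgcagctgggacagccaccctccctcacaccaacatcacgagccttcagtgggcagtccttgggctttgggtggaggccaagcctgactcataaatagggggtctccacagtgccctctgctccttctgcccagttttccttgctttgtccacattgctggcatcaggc
The motif stands in promoters shown of genes that fell and of genes that rose. Among 10678 tested genes with a promoter in the table, 47.6% held CAGAC on either strand, against 49% of the genes called higher and 48.5% of those called lower. For the AP-1 motif TGANTCA, on either strand, the shares were 5.19%, 5.71% and 5.15%. Ptgds holds 1 such match at -35 from the start site, with the letters TGACTCA as read on the strand of the gene. The motif reads the same on both strands, so a match has no strand of its own. For TATAAA on the strand of the gene the shares were 4.62% of all, 7.09% of the higher and 3.79% of the lower genes. The E2F motifs TTTCCCGC and TTTGGCGC, on either strand and counted together, stood in 2.99%, 2.08% and 4.88%, and the GLI motif GACCACCCA in 0.215%, 0.519% and 0.271%. A match is a description of letters and not of a bound site.

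Most fibrillar collagens, the chains of the rope-like matrix fibres, were lower with shCr EVs. Of 9 tested, 6 fell and 0 rose (median log2 fold change -0.60), and 6 fell without shCr replicate 1. Col1a1, the main chain of type I collagen, measured 6590.5, 6565 and 6516 CPM with shCon EVs and 2891, 3908 and 3797 CPM with shCr EVs. The shCr values lay well below the shCon values, with replicate 1 the lowest (-0.89, SE 0.09, adjusted p = 8.43e-05). Untreated cells had 4535 ± 229 CPM, between the means of the shCr and shCon groups. CrOE EV cells had 721 ± 23.8 CPM, so both altered donor lines lay below shCon. Its partner chain Col1a2 went from 5181, 5266 and 5162 to 3217, 3639 and 3431 CPM (-0.60, adjusted p = 1.81e-05). Col3a1 (-0.65), Col5a2 (-0.76) and the cartilage-type chain Col11a1 (-1.22, 22.9 ± 0.918 to 9.79 ± 0.668 CPM) fell as well, and Col5a1 (-0.44) was the call that failed in the model of only the 2 groups. CrOE EV cells had 2343 ± 119 CPM of Col5a2, above the 1337 ± 13.6 CPM of shCon. Their Col1a2, Col3a1, Col5a1 and Col11a1 levels lay below shCon.

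Of 14 basement membrane collagen, laminin and nidogen genes tested, 1 rose (Nid2, 0.60, adjusted p = 0.000554) and 0 fell (median -0.12). That is 7.14% called, near the 8.73% of all genes tested. Of 10 other collagens 1 fell (10%), Col8a2, which had only 0.520 ± 0.135 CPM with shCon EVs. Without shCr replicate 1, 2 of these 10 rose and 2 fell.

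Fibronectin and many matricellular proteins were lower with shCr EVs. Fn1, the adhesion glycoprotein that cells assemble into fibrils, measured 7312, 7281 and 7118 CPM with shCon EVs and 3245, 3721 and 3947 CPM with shCr EVs. All shCr values were below all shCon values, at a fold of 0.503 (log2 fold change -0.99, SE 0.07, adjusted p = 7.46e-06). Untreated cells had 4147 ± 344 CPM, so Fn1 rose with shCon EVs (0.80, adjusted p = 3.38e-06) and lay at -0.19 with shCr EVs (adjusted p = 0.0607). CrOE EV cells had 3760 ± 124 CPM of Fn1, also below shCon. Of 19 fibronectin and matricellular genes tested, 9 fell, Ctgf and Tgfbi given above among them, and 3 rose (median -0.20). Without shCr replicate 1, 10 fell and 3 rose, and in the model of only the 2 groups 7 fell and 3 rose. Postn, periostin, went from 988, 953 and 895 to 626, 580.1 and 518 CPM (-0.72, adjusted p = 0.000221), and was 31.2 ± 2.16 CPM with CrOE EVs. Wisp1, a CCN-family matricellular protein, went from 67.3, 63.6 and 66.5 to 33.0, 30.0 and 28.0 CPM (-1.12, adjusted p = 2.97e-06). Unlike Fn1 and Postn it was higher with CrOE EVs (136 ± 2.69 CPM) than with shCon EVs. Against these, Smoc2 rose by 0.63 and Thbs2, thrombospondin 2, by 0.48 on the log2 scale. Opposite-strand exons overlap 2.50% of the exon bases of Fn1.

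Of 18 elastic fibre and crosslinking genes tested, 9 fell and 2 rose (median -0.37), with 8 falls and 2 rises (median -0.22) without shCr replicate 1 and 7 falls and 1 rise in the model of only the 2 groups. Fbln5, fibulin-5, which helps elastin assemble on fibrils, had 424, 412 and 410.4 CPM with shCon EVs and 132, 131 and 136 CPM with shCr EVs. Replicates were close and the groups far apart (-1.64, SE 0.06, adjusted p = 3.65e-08). In untreated cells it was 148 ± 8.76 CPM, above which it rose with shCon EVs (1.48, adjusted p = 5.59e-09), while with shCr EVs it stood at -0.16 from it (adjusted p = 0.0534). CrOE EV cells had 42.5 ± 3.31 CPM, so here too both altered donors lay below shCon. Mfap4, a microfibril-associated protein, fell from 5.15, 5.68 and 5.33 to 1.06, 1.09 and 1.51 CPM (-2.13, adjusted p = 3.37e-05). Fbn1, the fibrillin of microfibrils, fell by 0.57 on the log2 scale and Lox, which crosslinks collagen and elastin, by 0.53 (adjusted p = 0.00103 and 7.57e-05). Opposite-strand exons overlap 20.1% of the exon bases of Fbn1.

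Small leucine-rich proteoglycans, which bind collagen fibrils and growth factors, were mixed. Of 11 tested, 3 fell and 3 rose (median -0.17), with 2 rises (median -0.35) without shCr replicate 1 and 1 in the model of only the 2 groups. Aspn, asporin, had 18.0, 18.3 and 16.1 CPM with shCon EVs and 6.34, 3.27 and 2.60 CPM with shCr EVs (-2.13, adjusted p = 0.00129). Among the shCr libraries replicate 1 was the highest, still below all shCon libraries. Biglycan (Bgn) fell from 3726 ± 58.8 to 2398 ± 149.7 CPM (-0.64, adjusted p = 4.81e-05). Kera, keratocan, rose by 2.59 (adjusted p = 0.0104) from 4, 4 and 1 counts with shCon EVs to 27, 13 and 23 counts with shCr EVs, so its fold is imprecise. The rise of decorin (Dcn, 0.43) was lost without shCr replicate 1.

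Matrix proteases and their inhibitors went both ways, with 6 lower and 5 higher of 21 tested (median -0.09), and 5 lower and 2 higher in the model of only the 2 groups. The urokinase gene Plau rose by 0.74 (adjusted p = 0.00971, lost without shCon replicate 2) and the tissue-type activator Plat by 0.43 (adjusted p = 0.00186). The metalloproteinase inhibitor Timp3 fell from 49.0 ± 1.22 to 30.2 ± 2.87 CPM (-0.70, adjusted p = 0.00132) and the collagenase Mmp13 from 72.9 ± 3.35 to 45.7 ± 9.37 CPM (-0.68, adjusted p = 0.00417). Opposite-strand exons overlap 21.3% of the exon bases of Timp3.

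Some contractile genes, by which activated fibroblasts are often recognised, were lower with shCr EVs. Of 13 tested, 4 fell and 1 rose (median -0.13), with the same counts and a median of -0.01 without shCr replicate 1. Acta2, smooth-muscle actin, measured 619.5, 625 and 651 CPM with shCon EVs and 377, 415 and 448 CPM with shCr EVs. The shCr libraries were all lower (-0.61, SE 0.06, adjusted p = 6.99e-05), but both groups were below the 1355 ± 30.9 CPM of untreated cells. Tagln, transgelin, fell by 0.42 on the log2 scale (adjusted p = 0.000172), with 67.9% of its exon bases overlapped by 2 opposite-strand genes. Actg2 (-0.50) and Myl9 (-0.34) fell and Cnn2 rose (0.25), the latter 2 calls being lost in the model of only the 2 groups.

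Of the panel of 16 fibroblast activation markers, 15 were tested, of which 7 fell and 6 rose. The calls in Acta2, Tagln, Postn, Fn1, Col1a1, Ctgf and Cxcl12 were falls, and those in Vim, S100a4, Pdgfra, Il6, Ccl2 and Cxcl1 rises. The rises of Vim, Pdgfra, Il6 and Ccl2 were each lost when shCon replicate 1 or 2 was left out, and those of Pdgfra and Ccl2 also without shCr replicate 1. Pdgfrb (0.08) and Tgfb1 were not called. S100a4, a calcium-binding protein of motile fibroblasts, had 391, 403 and 409 CPM with shCon and 952, 678 and 591 CPM with shCr EVs (0.88, adjusted p = 0.00164). The highest value came from shCr replicate 1, and 49.2% of the 31-base stretches of its transcripts occur in other genes. The same library was also highest in Lyz2, a lysozyme of myeloid cells (84.7, 75.7 and 73.4 CPM with shCon and 186, 132 and 121 CPM with shCr EVs, 0.91, adjusted p = 0.00122). Ptprc and Adgre1, with the counts given above, were too low to show such a rise. Cd68 had 5.60 ± 0.577 CPM with shCon and 5.56 ± 0.886 CPM with shCr EVs. For Csf1r these were 2.11 ± 0.452 and 2.20 ± 0.0445 CPM, and for Cd14 41.7 ± 1.23 and 48.1 ± 4.67 CPM. Of the 31-base stretches of Lyz2 transcripts, 32.8% occur in other genes. Of the 5 leukocyte markers tested only Lyz2 was called, and 4 of the 5 had a positive log2 fold change. The part of other cells in S100a4 and Lyz2 was not tested. Of the 12 fibroblast markers, which overlap this panel, 5 fell and 4 rose, with 5 falls and 2 rises without shCr replicate 1 and 4 falls and 2 rises in the model of only the 2 groups. In bulk libraries fewer cells of a kind and less RNA per cell cannot be told apart.

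**Figure D3:**
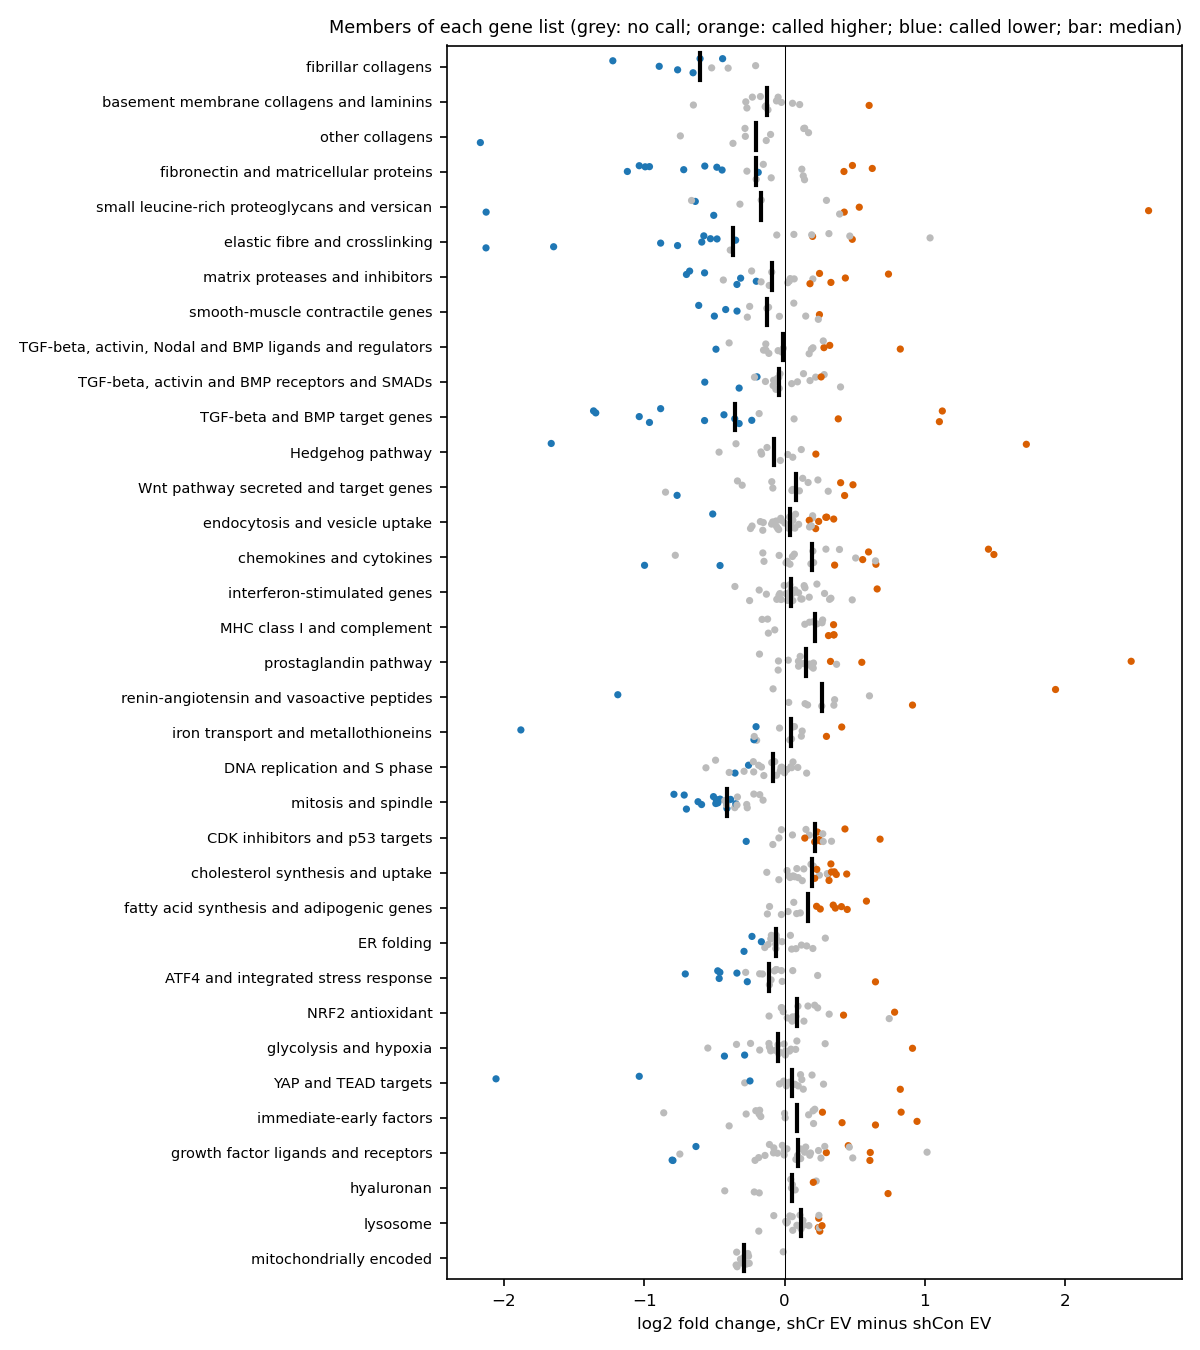
Log2 fold change of shCr over shCon EVs (horizontal axis) for the tested members of each gene list (vertical axis), with a point per gene, orange if called higher, blue if called lower and grey if not called, and a black bar at the median of the list. The medians of fibrillar collagens, elastic fibre, TGF-beta target and mitosis genes lie to the left of 0, and those of cholesterol and chemokine genes to the right.

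The largest rise by the naming rule was in Ptgds, which encodes a prostaglandin D synthase that also carries lipids. It had 3.36, 3.02 and 4.29 CPM with shCon EVs and 22.0, 19.1 and 18.0 CPM with shCr EVs, 5.54-fold more (2.47, SE 0.13, adjusted p = 5.53e-07). Every shCr library was above every shCon library, while untreated cells had 0.693 ± 0.0717 CPM and CrOE EV cells 0.138 ± 0.0212 CPM. Elsewhere in the prostaglandin pathway the inducible synthases Ptges (0.55, adjusted p = 0.00038) and Ptgs2 (0.33, adjusted p = 0.00496) rose, making 3 higher and 0 lower of 16 tested (median 0.16).

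Agt, angiotensinogen, the precursor of the angiotensin peptides, had 3.94, 4.98 and 3.64 CPM with shCon EVs and 16.8, 16.7 and 14.5 CPM with shCr EVs. The groups did not overlap (1.93, SE 0.17, adjusted p = 2.49e-05), and untreated cells had 25.7 ± 6.05 CPM. Adm, the vasodilator adrenomedullin, rose from 22.5, 23.9 and 26.2 to 48.0, 42.8 and 45.8 CPM (0.91, adjusted p = 4.46e-05). Of 11 renin-angiotensin and vasoactive peptide genes tested, these 2 rose and 1 fell, the low-level Ace (1.04 ± 0.310 to 0.456 ± 0.0627 CPM), whose call was lost in the model of only the 2 groups.

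Hhip, which binds Hedgehog ligands and is itself a Hedgehog target, had 4.04, 4.88 and 4.86 CPM with shCon EVs and 17.6, 15.1 and 13.0 CPM with shCr EVs (1.72, SE 0.16, adjusted p = 3.18e-05). The shCr libraries were above the shCon libraries and below the 43.0 ± 8.08 CPM of untreated cells. Of 12 Hedgehog genes tested 2 rose (Hhip and Boc) and 1 fell, and of these only Hhip was called in the model of only the 2 groups. The receptor Ptch1 had a log2 fold change of 0.06 (adjusted p = 0.676).

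Apod, apolipoprotein D, a lipocalin, was another of the large rises. Its level was 113, 123 and 115 CPM with shCon EVs and 353, 255 and 314 CPM with shCr EVs (1.40, SE 0.12, adjusted p = 2.15e-05). All 3 shCr libraries lay above the shCon libraries, shCon above the 44.2 ± 6.55 CPM of untreated cells, and CrOE EV cells had 0.782 ± 0.155 CPM. Sparcl1, a matricellular SPARC relative, rose from 4.69, 4.55 and 5.33 to 14.1, 15.5 and 15.9 CPM (1.64). Others of the 12 largest rises were the Wnt antagonist Apcdd1 (1.20), the deiodinase Dio2 (1.17), the aldehyde oxidase Aox3 (1.23), Tmtc1 (1.33), Mrvi1 (1.43) and Fam46c (1.16). Opposite-strand exons overlap 1.58% to 1.93% of the exon bases of Hhip, Dio2 and Mrvi1.

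Among the largest falls, Slc40a1, ferroportin, the iron exporter, had 12.8, 11.8 and 11.2 CPM with shCon EVs and 3.45, 3.20 and 3.07 CPM with shCr EVs (-1.88, SE 0.11, adjusted p = 1.79e-06). Untreated cells had 1.97 ± 0.0927 CPM, so the gene was higher with both EVs than without (log2 fold change 2.59, adjusted p = 1.56e-08 with shCon and 0.72, adjusted p = 0.000955 with shCr EVs). Of 14 iron and metallothionein genes tested, 3 fell and 2 rose (median 0.04), with 4 falls without shCr replicate 1 and 1 in the model of only the 2 groups, the risers being Mt1 (0.41) and the ferritin heavy chain Fth1 (0.30). Anxa8, an annexin, had 49.9, 47.6 and 47.8 CPM with shCon EVs and 16.4, 16.7 and 16.7 CPM with shCr EVs (-1.55, SE 0.06, adjusted p = 4.78e-08). It was 82.7 ± 6.77 CPM in untreated and 122 ± 3.08 CPM in CrOE EV cells, which places the EV groups in the order shCr, shCon, CrOE.

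The other large falls were in genes of diverse roles. Hes1, a Notch-induced repressor, went from 2.40, 2.52 and 2.23 to 0.811, 0.961 and 0.530 CPM (-1.65, adjusted p = 0.000159). Prg4, lubricin, went from 2.76, 2.62 and 2.99 to 0.493, 0.769 and 1.01 CPM (-1.84, adjusted p = 0.000269). Myo7a, an unconventional myosin, went from 45.3, 40.8 and 42.9 to 10.2, 16.7 and 13.8 CPM (-1.66, adjusted p = 2.46e-05). In each of these 3 genes the groups did not overlap. Kif26b, a kinesin-family protein (-1.34, 129 ± 14.7 to 51.0 ± 5.42 CPM), and Tnnt2, a troponin (-1.53, 3.08 ± 0.235 to 1.06 ± 0.108 CPM), fell as well. Opposite-strand exons overlap 0.297% to 6.18% of the exon bases of Aspn, Mfap4, Prg4 and Kif26b.

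**Figure D4:**
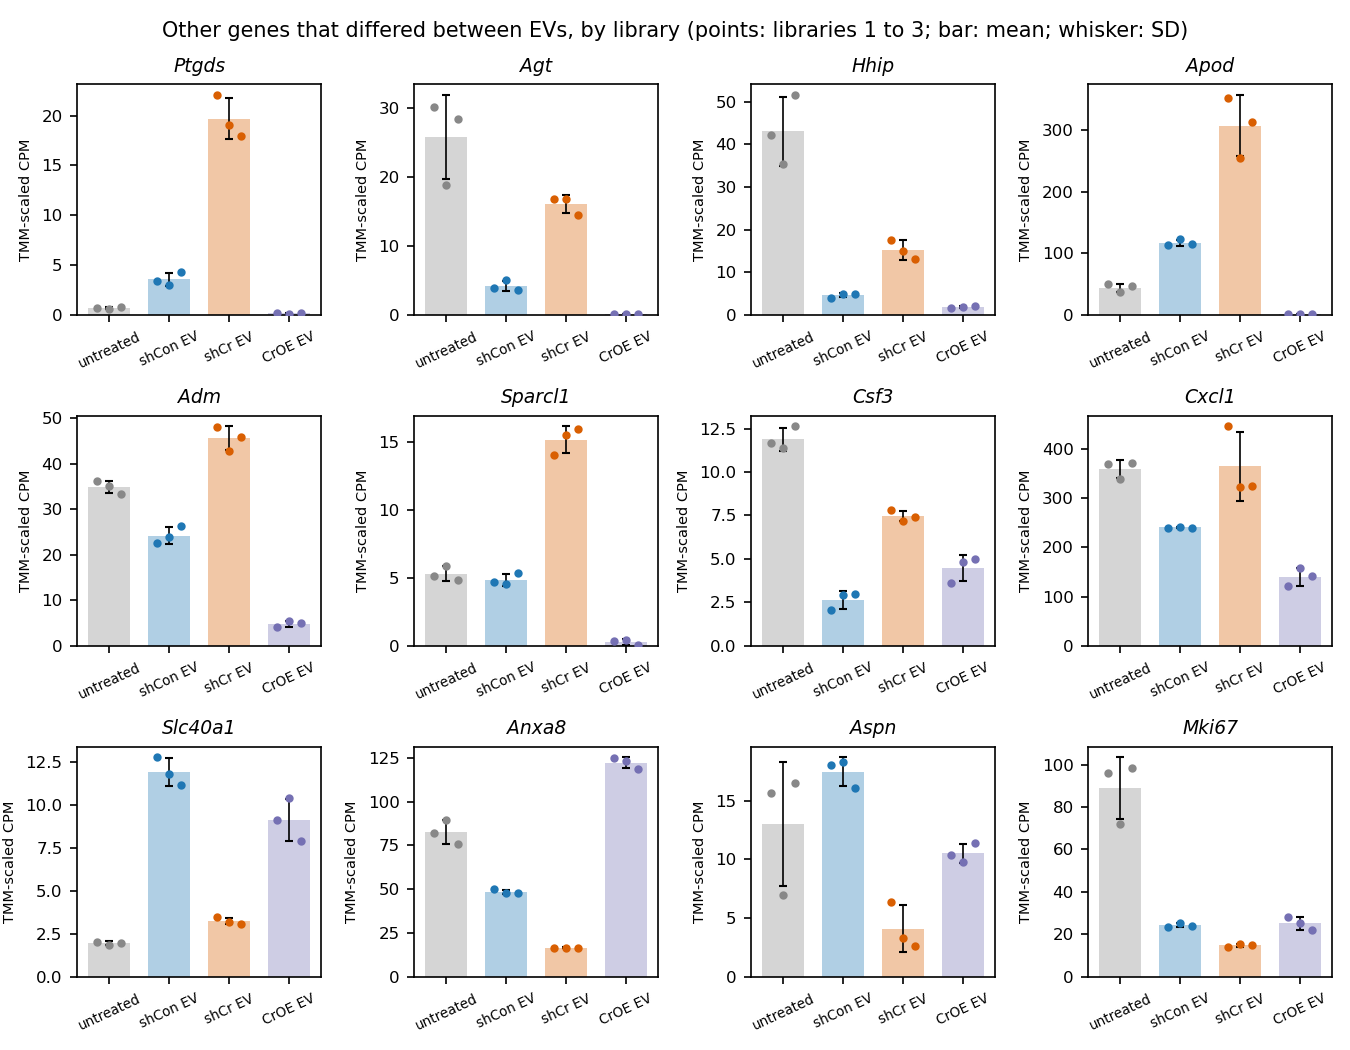
TMM-scaled CPM (vertical axes, linear from 0) of 12 further genes in the 4 groups (horizontal axes), with a point per library, a bar at the mean and a whisker of 1 SD. Ptgds, Agt, Hhip and Apod are higher with shCr than with shCon EVs in every library, and Slc40a1, Anxa8, Aspn and Mki67 are lower.

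Many genes of mitosis were lower with shCr EVs. Of 24 tested, 14 fell and 0 rose (median -0.41), all 24 log2 fold changes were negative, and 13 fell without shCr replicate 1. Mki67, the proliferation marker Ki-67, measured 23.5, 25.5 and 23.9 CPM with shCon EVs and 14.2, 15.4 and 14.8 CPM with shCr EVs. The groups did not overlap (-0.71, SE 0.12, adjusted p = 0.00275), and both lay under the 88.9 ± 14.5 CPM of untreated cells. The kinetochore protein Cenpf fell from 5.37 ± 0.528 to 3.12 ± 0.468 CPM (-0.79, adjusted p = 0.00524), the kinetochore motor Cenpe by 0.70 on the log2 scale and the checkpoint kinase Bub1b by 0.62. Of 24 DNA replication genes 2 fell, Mcm2 (-0.35) and Mcm3 (-0.26), and 0 rose (median -0.08). Calls thus made up 8.33% of this list, near the 8.73% of all genes tested. There were 3 falls without shCr replicate 1 and 1 in the model of only the 2 groups.

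Of 17 CDK inhibitor, D-type cyclin and p53 target genes tested, 7 rose and 1 fell (median 0.21), but in the model of only the 2 groups 3 rose. Ccnd1, cyclin D1, had 97.7, 99.0 and 107 CPM with shCon EVs and 162, 161 and 164 CPM with shCr EVs (0.68, adjusted p = 3.07e-05). Every shCr library was above every shCon library, but both groups were below the 288 ± 14.4 CPM of untreated cells. An opposite-strand gene overlaps 23.4% of the exon bases of Ccnd1. The CDK inhibitor Cdkn2c rose by 0.43 (adjusted p = 0.00176), and the rise of Cdkn1a, p21, was 0.21 (adjusted p = 0.0171).

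Chemokine and cytokine genes had 6 rises and 2 falls among 24 tested (median 0.20), and 5 rises and 2 falls (median 0.08) without shCr replicate 1. Cxcl1, a neutrophil attractant, measured 239, 242 and 239.6 CPM with shCon EVs and 445, 322 and 325 CPM with shCr EVs (0.60, adjusted p = 0.0076). Replicate 1 was the highest of the shCr libraries, and the other 2 also exceeded all shCon libraries. Csf3, G-CSF, rose from 2.04, 2.92 and 2.99 to 7.79, 7.21 and 7.42 CPM (1.49, adjusted p = 7.14e-05), Ccl20 by 1.45 and Cx3cl1 by 0.56 on the log2 scale. Against untreated cells (11.9 ± 0.661 CPM) Csf3 was still lower with shCr EVs (log2 fold change -0.67, adjusted p = 0.00146), as was Cx3cl1 (-0.25, adjusted p = 0.0439). Cxcl1 lay near its untreated 359 ± 18.1 CPM (0.02, adjusted p = 0.925), and Ccl20 above its untreated 0.162 ± 0.0779 CPM (2.89, adjusted p = 2.11e-05). Ccl20 was a low-count gene, with 11, 11 and 16 counts with shCon EVs and 38, 40 and 40 with shCr EVs. Cxcl12, which retains CXCR4-bearing cells, fell by 0.46 (adjusted p = 0.00132), and Tnfrsf11b, osteoprotegerin, by 1.00. The rises of Il6 (0.65) and Ccl2 (0.36) were lost when any shCon library was left out. Untreated cells had 17.6 ± 3.23 CPM of Il6, against 6.69 ± 0.956 CPM with shCr EVs. Their Ccl2 level was 734 ± 59.5 CPM, against 768 ± 92.7 CPM with shCr EVs. Of 33 interferon-stimulated genes tested, 1 was called (3.03%, against 8.73% of all genes tested), Ifit2 (0.66, adjusted p = 0.00316), and the median was 0.05.

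Called genes of lipid synthesis were higher by small amounts. Of 24 cholesterol synthesis and uptake genes tested, 9 rose and 0 fell (median 0.20), with 7 rises without shCr replicate 1 and 7 in the model of only the 2 groups. The sterol isomerase Ebp rose by 0.44 (adjusted p = 0.000858), mevalonate kinase Mvk by 0.36 (adjusted p = 0.00322) and the reductase Dhcr7 by 0.33 (adjusted p = 0.00509). Of 14 fatty acid and adipogenic genes 7 rose and 0 fell (median 0.17), led by the adipogenic regulator Pparg (5.90, 5.21 and 5.76 to 8.60, 8.84 and 7.87 CPM, 0.58, adjusted p = 0.000925). Of these genes 6 rose and 1 fell without shCr replicate 1, and 3 rose and 0 fell in the model of only the 2 groups.

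Genes of EV uptake, which the study's title brings up, changed in both directions. Of 33 endocytosis, proteoglycan, integrin and tetraspanin genes tested, 6 rose and 1 fell (21.2%, against 8.73% of all genes tested, median 0.04), while 5 rose and 3 fell without shCr replicate 1, and 3 rose and 1 fell in the model of only the 2 groups. The largest call was the fall of Sdc3, syndecan-3 (129, 126 and 128 to 79.7, 96.3 and 93.0 CPM, -0.51, adjusted p = 0.000608). The scavenger receptor Scarb1 rose by 0.35 (adjusted p = 0.000599), the tetraspanin Cd151 by 0.30 and the glypican Gpc1 by 0.29, the latter with 18.9% of its exon bases overlapped by an opposite-strand gene. The caveolin gene Cav1 and the clathrin heavy chain gene Cltc were not called (0.00 and -0.15, adjusted p = 0.991 and 0.177). How many EVs the cells took up was not measured in these libraries.

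Genes of the ATF4 stress response were lower where called, except Atf3. Of 19 genes of the ATF4 response, 6 fell and 1 rose (median -0.11), and 7 fell (median -0.19) without shCr replicate 1. The pseudokinase Trib3 fell from 88.9, 89.2 and 93.0 to 52.5, 52.3 and 61.1 CPM (-0.71, adjusted p = 0.00337), the mitochondrial enzymes Pck2 by 0.48 and Shmt2 by 0.46, and asparagine synthetase Asns by 0.34 on the log2 scale. Atf4 itself was not called (-0.02, adjusted p = 0.905), and Atf3 was the gene that rose (0.65). ER folding genes had 3 falls among 19 (15.8%, against 8.73% of all genes tested, median -0.06), which became 6 without shCr replicate 1. Hspa5, the chaperone GRP78, had a log2 fold change of 0.05 (adjusted p = 0.71). Immediate-early factors had 5 rises and 0 falls among 18 (median 0.09) and 8 rises without shCr replicate 1, led by Nr4a1 (13.1, 14.3 and 15.1 to 24.1, 28.7 and 29.0 CPM, 0.94) and the AP-1 subunit Fosl1 (0.83, adjusted p = 0.00438), with 57.2% of the exon bases of Fosl1 overlapped by an opposite-strand gene.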

How the data were processed

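The deposited values are the authors' estimated counts, 1 column per library and unscaled between libraries; 39.8% of the values were not whole numbers. The submitters' processing notes name featureCounts and the mouse build mm39, with no version. The aligner, the annotation and the use of strand are not given in the sources used here, and libraries were directional and poly(A)-selected per the labels' protocols. Columns were matched to samples by name, those headed with the protein's name alone to CrOE by elimination. In 27 rows the symbol had become a date (at most 0.259% of a library's counts), and none is named.

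Values were rounded to whole numbers, filtered with filterByExpr, scaled by TMM and tested with edgeR 4.0.16 (R 4.3.3, limma 3.58.1) by the quasi-likelihood F-test, all 12 libraries in 1 model with a mean per group and 8 residual degrees of freedom. The common biological coefficient of variation was 8.90%. P-values were adjusted by Benjamini-Hochberg over 14279 genes, with SE from the F statistic. On simulated counts with no change the test made 0 calls. Of 200 genes changed 2-fold, all with a mean of at least 2 CPM, it recovered 195, with 11 false calls. Smaller folds, changes in genes under 2 CPM, broad differences between the groups and an outlying library were not simulated. The check thus does not cover calls of smaller fold or in genes of lower level. Alternatives, with DESeq2 1.42.0 among them, stand in the closing section; list counts without shCr replicate 1 and in the model of only 2 groups were added after the data were seen.

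Named were Tdgf1, the 12 largest rises and falls among calls without overlap between the libraries and with an average log2 CPM of 1 or more, up to 6 called members of each list, the first members of a list where not called, and 16 activation markers. Beyond the rule, Cdkn1a, Cltc, Id1, Lox, Ptch1, Ski, Tgif1 and Thbs2 were chosen after their values were seen. Members and lists were chosen with earlier results of these data known. Exon overlaps and shared 31-base stretches came from GENCODE M21 and promoters from RefSeq; neither is of build mm39, so positions are of GRCm38.p6 only. The floor of 3 counts covers counting error only, PCR duplicates being part of the counts. Some list members that were counted are not reported by name here.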

Additional observations from a re-analysis of the deposited data

How the results depend on the processing

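For shCr against shCon EVs, 639 genes were called in a model of only these 2 groups and 108 at a fold change of at least 2, against 1247. Leaving out each library in turn gave 636 to 1398 calls, the lowest without shCon replicate 2. The counts without shCon replicates 1, 2 and 3 were 680, 636 and 685. At a fold of at least 2, shCon EVs against untreated cells gave 863 calls of 5447 and shCr EVs against untreated cells 897 of 5320. With each library left out these were 4272 to 5546 and 4230 to 6692. The other settings of the first comparison gave 950 to 1570 calls: 1216 with DESeq2's size factors, 1570 with DESeq2, 1000 without the low-count filter, 1213 at 10 counts in every library and 950 without the CrOE libraries. Same-numbered shCr and shCon libraries deviated from their group means with correlations of 0.12, -0.05 and 0.10, so the numbers were not taken to pair them; with the replicate number as a block 1281 genes were called (5691 and 5529 against untreated cells). Of 197 named and listed genes called, 123 were called under all settings run, 59 were lost in the model of only the 2 groups, 15 without shCr replicate 1, and 0 reversed. The cause of these losses was not tested.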

Other observations

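Complement and growth factor genes were not part of the account above. Of 14 MHC class I and complement genes tested, 4 rose and 0 fell (median log2 fold change 0.22), namely C1ra, C1s1, C3 and Serping1 by 0.31 to 0.35, and each of these calls was lost when any shCon library was left out. Without shCr replicate 1 and in the model of only the 2 groups, 3 rose. The MHC class I genes H2-K1 and B2m had log2 fold changes of 0.18 and 0.20 (adjusted p = 0.236 and 0.173). C1ra and C1s1 share 59.3% and 33.5% of their 31-base stretches with other genes and are uncertain for that reason as well. Of 33 growth factor ligand and receptor genes, 4 rose and 3 fell (median 0.09), and 3 rose and 2 fell without shCr replicate 1. Nrg1, a ligand of ERBB receptors, had 98.9, 99.5 and 99.3 CPM with shCon EVs and 153, 149 and 152 CPM with shCr EVs (0.61, adjusted p = 6.79e-06). Pdgfc, a PDGF ligand, went the other way, from 37.4, 36.7 and 33.6 to 23.8, 19.2 and 19.0 CPM (-0.80, adjusted p = 0.000131), as did the IGF-binding Igfbp7 (390.1, 388 and 377 to 265, 245 and 236 CPM, -0.63, adjusted p = 0.000237).

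Cemip, which breaks down hyaluronan, rose from 261, 277 and 262 to 438, 446 and 449.6 CPM (0.74, adjusted p = 1.94e-06). Of 10 hyaluronan genes tested 2 rose and 0 fell (median 0.05), but 1 rose and 1 fell (median -0.06) without shCr replicate 1, and 1 rose and 0 fell in the model of only the 2 groups. In the Wnt list 3 rose and 1 fell of 16 tested (median 0.08), with the secreted antagonist Sfrp2 at 0.43 (adjusted p = 0.000295), the ligand Wnt5a at 0.40 (adjusted p = 0.00582) and the activator Rspo3 at -0.77 (adjusted p = 0.00991). Opposite-strand exons overlap 16.1% of the exon bases of Sfrp2, 13.1% of those of Rspo3 and 2.89% to 7.03% of those of Nrg1, Pdgfc, Igfbp7 and Wnt5a. Of 16 YAP and TEAD targets 3 fell and 1 rose (median 0.05), and 3 rose without shCr replicate 1. Of 22 glycolysis and hypoxia genes 2 fell and 1 rose (13.6%, median -0.04), and of 18 NRF2 antioxidant genes 2 rose and 0 fell (11.1%, median 0.09). Over all genes tested the share called was 8.73%. Of 20 lysosome genes 4 rose and 0 fell (median 0.11), 1 of which was called in the model of only the 2 groups. None of the 13 mitochondrially encoded genes tested was called (median -0.29), and without shCr replicate 1, the library of low mitochondrial share, the median was 0.03.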
